A study of Mus musculus with 22 samples.

Results

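Expression and ribosome occupancy of 10 glial genes were followed in cultured mouse cortical neural stem cells (NSCs) in which the RNA-binding proteins Msi1 and Msi2 had been induced or deleted. The genes mark radial glia (Nes, Fabp7, Slc1a3), astrocytes (Gfap, S100b, Aqp4) and the oligodendrocyte lineage (Olig1, Olig2, Pdgfra, Cspg4). They were picked by gene symbol in the tables of ribosome-protected fragments (Ribo-Seq) and joined to the polyA RNA-Seq tables by Ensembl identifier, and are 10 of the 20396 genes present in both sets of files (22623 genes in RNA-Seq, 23081 in Ribo-Seq).

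Radial glia are the stem cells of the embryonic cortex, and the same lineage first makes neurons and later astrocytes and oligodendrocyte precursors. Cultured NSCs kept dividing by EGF and bFGF retain radial glial genes, and growth with bFGF is known to switch on Olig1 and Olig2 in cortical cells. Musashi proteins bind short RNA motifs built around UAG, mostly in 3′ UTRs, and are known as markers of neural stem and progenitor cells.

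All cells were NSC lines cultured from embryonic mouse cortex on laminin. The tet lines carried the R26-m2rtTA transactivator, which lets doxycycline (Dox) switch on a tetO transgene. KH2 carried no Msi cDNA and served as the Dox control, while tetO-Msi1 and tetO-Msi2 carried a Msi1 or Msi2 cDNA at the Col1A1 locus. These lines were grown for 72 h with 1 µg/ml Dox or without it. The floxed lines carried conditional alleles of both Msi1 and Msi2: C4 also carried a tamoxifen-inducible CreER, and C1 did not and served as the 4-OHT control. They were grown for 48 h with or without 4-hydroxytamoxifen (4-OHT). Both sets were derived at E12.5. KH2 without Dox and tetO-Msi1 with and without Dox were also sequenced from E13.5 cells, with no Dox-treated KH2 beside them at that stage. RNA-Seq covered 13 conditions in 14 libraries, because untreated E13.5 tetO-Msi1 cells were sequenced as a pair of technical replicates that were summed and counted as 1 sample. Ribo-Seq covered 8 conditions, KH2, tetO-Msi1, C1 and C4 at E12.5, each with and without its drug. Each condition was 1 library, so lines or stages served as repeats. The p-values rest only on the spread between these libraries, which the tests pool in part or in full over genes.

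RNA-Seq libraries held 7889966 to 58435172 counted reads and Ribo-Seq libraries 657288 to 6381242. In the Ribo-Seq library of untreated KH2 cells 66.7% of the counts fell on Hes7. The top gene held 17.9% in Dox-treated KH2 (Rdm1), and in tetO-Msi1 11.1% without Dox (Tmco1) and 3.50% with it (Trim27). In floxed Ribo-Seq libraries the top gene held 0.997% to 1.26%. In tetO-Msi1 cells Dox raised Msi1 mRNA from 19.7 to 108 RPKM (reads per kb of counted exon, scaled to the depth of the library) at E12.5 and from 50.5 to 208 RPKM at E13.5. In tetO-Msi2 cells it raised Msi2 mRNA from 23.2 to 128 RPKM, and in KH2 cells Msi1 and Msi2 differed by -0.05 and 0.08 log2. Msi2 mRNA was lower with Dox in tetO-Msi1, at 31.6 and 19.8 RPKM at E12.5 and at 55.4 and 25.4 RPKM at E13.5, so Msi1 induction was not a change in Msi1 alone. With 4-OHT, Msi2 mRNA in C4 went from 39.5 to 4.54 RPKM. Msi1 mRNA in C4 was 9.46 RPKM without and 9.42 RPKM with 4-OHT, so the library labelled C4 with 4-OHT showed loss of Msi2 but not of Msi1 at the level of whole-gene mRNA; Msi1 footprints there were 56 without and 20 with 4-OHT. Whether the counted exons include the deleted part of Msi1 cannot be told from the gene totals. The NSC markers Sox2 (161 to 381 RPKM) and Vim (705 to 2415 RPKM) were present in all 13 conditions. Markers of other cells had their lowest deposited RPKM in tet lines. The summed level of the 10 neuronal genes in the files was 18.6 to 35.2 RPKM in E12.5 tet lines, 56.2 to 93.4 in E13.5 tet lines and 97.9 to 119 in floxed lines. The mural and fibroblast list summed to 1.33 to 6.18, 6.14 to 12.7 and 46.2 to 127 RPKM in the same order, mostly from Acta2. Microglial genes (0.353 to 5.03 RPKM, with Cx3cr1 and C1qa at 0) and endothelial genes (0.212 to 6.55 RPKM) stayed low throughout.

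Because Musashi proteins bind UAG-centred motifs, the 3′ UTRs of the 10 genes (the longest in the annotation, build NCBIM37, mm9) were searched on the transcript strand for UAG and for GUAGU and AUAGU, both of which contain UAG. UAG occurred in 93.6% of 19381 annotated 3′ UTRs of at least 50 nt, and GUAGU or AUAGU in 59.4%. All 10 genes held UAG, and 7 held at least 1 GUAGU or AUAGU. S100b and Slc1a3 were densest in UAG, with 18 in 1091 nt and 31 in 2008 nt, at percentiles 87.5 and 83.0 among all 3′ UTRs. Olig2 was sparsest, with 9 in 1306 nt at percentile 20.6, and Pdgfra followed with 28 in 3104 nt at percentile 33.4. Nes held 1 of the longer motifs in only 421 nt, which put it at percentile 83.3 for their density. Gfap (14 UAG in 1341 nt) and Olig1 (16 in 1280 nt) lay at percentiles 44.2 and 61.9 for UAG. The 30 bases richest in these motifs are shown for Gfap, Pdgfra, Olig1 and Olig2, which hold a longer motif and whose values with Dox or 4-OHT are described below, and for S100b as the densest in UAG. Aqp4 (5 longer motifs), Nes (1) and Slc1a3 (1) also hold them. They are written 5′ to 3′ in transcript sense with UAG (TAG in DNA letters) in capitals. A match describes the sequence and is not evidence of binding.
Gfap, chr11:102749916-102749945, minus strand: agcttatcctcaaaTAGtcctgtttgccag
Pdgfra, chr5:75591717-75591746, plus strand: gtgagTAGTAGgtttgggtctttTAGggca
Olig1, chr16:91271098-91271127, plus strand: gcgatgTAGttgcttgggattcTAGatgaa
Olig2, chr16:91228486-91228515, plus strand: agttgctgtgaataTAGtttgagctttttg
S100b, chr10:75723007-75723036, plus strand: tTAGcacatcatgatttctgcTAGgcTAGg
In Gfap and Olig2 the capitals are the core of an AUAGU, and in Pdgfra and Olig1 the window holds a GUAGU. The S100b window holds 3 UAG and neither of the longer motifs.

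Radial glial genes were abundant in every condition. Fabp7 (ENSMUSG00000019874, chr10:57504687-57508256), a fatty acid binding protein of radial glia, had the highest mRNA level per length of the 10 genes in all 13 conditions, at 795 to 1052 RPKM in E12.5 tet lines, 2205 to 2687 RPKM in E13.5 tet lines and 2029 to 2518 RPKM in floxed lines. Slc1a3 (ENSMUSG00000005360, chr15:8584124-8660764), the glutamate transporter GLAST, was at 163 to 243, 363 to 496 and 300.1 to 363 RPKM. Nes (ENSMUSG00000004891, chr3:87775000-87784373), the intermediate filament nestin, was at 19.9 to 38.3, 92.1 to 103 and 150.2 to 163 RPKM. Nes was thus the lowest of the radial glial genes, and still lay above 90.6% of all genes in every condition.

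Astrocyte genes ranged from absent to strongly expressed. Gfap (ENSMUSG00000020932, chr11:102748650-102762226), the intermediate filament of mature astrocytes, had 0.918 RPKM in untreated and 0.955 RPKM in Dox-treated KH2 at E12.5, from 67 and 122 reads. In tetO-Msi1 at E12.5 it was at 0.825 and 0.875 RPKM, and tetO-Msi2 had 1 read without Dox and 0 reads with it, which allows up to 0.0320 RPKM. At E13.5 Gfap was at 19.2 RPKM in KH2, and at 26.2 RPKM without and 12.8 RPKM with Dox in tetO-Msi1. In floxed lines it was at 60.3 and 56.6 RPKM in C1 and at 151 and 82.6 RPKM in C4, without and with 4-OHT. The 3 sets of libraries therefore did not overlap for Gfap, and its place among all genes ran from percentile 17.6 to 98.5. S100b (ENSMUSG00000033208, chr10:75716598-75723904), a calcium-binding protein of astrocytes and some oligodendrocyte lineage cells, was at 1.64 to 5.77 RPKM in E12.5 tet lines (29 to 87 reads), 6.98 to 11.1 RPKM in E13.5 tet lines and 29.8 to 36.9 RPKM in floxed lines. Aqp4 (ENSMUSG00000024411), the water channel of astrocyte endfeet, was at 2.86 to 9.99, 19.6 to 28.2 and 39.4 to 63.9 RPKM.

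Among oligodendrocyte lineage genes the transcription factors were high and the surface proteins of precursors were low. Olig1 (ENSMUSG00000046160, chr16:91270014-91272184) was at 154 to 229 RPKM in E12.5 tet lines, 433 to 697 RPKM in E13.5 tet lines and 331 to 543 RPKM in floxed lines. Olig2 (ENSMUSG00000039830, chr16:91225795-91228922), which is needed to form oligodendrocytes, was at 67.5 to 89.3, 155 to 237 and 229 to 337 RPKM. Pdgfra (ENSMUSG00000029231, chr5:75548316-75594229), the PDGF receptor of precursors, was at 1.55 to 8.68, 6.69 to 11.1 and 8.28 to 16.2 RPKM. Cspg4 (ENSMUSG00000032911, chr9:56712911-56747677), the NG2 proteoglycan, was at 5.62 to 10.8, 15.3 to 23.7 and 7.11 to 9.29 RPKM. Per length, Olig1 was thus above Pdgfra in every condition, and the order Fabp7, then Slc1a3 or Olig1, then Olig2 held in all 13 conditions.

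These RPKM values cannot be read across the sets without care. Counted reads made up 14.9% to 15.8% of the reads behind RPKM in the 6 E12.5 tet libraries and 28.2% to 34.1% in the other RNA-Seq libraries. Counts scaled by TMM and divided by length (CPM per kb) remove this gap, and lower the log2 ratio of floxed over E12.5 tet lines of the median member by 1.10. On that scale Slc1a3 and Pdgfra turned from 0.57 and 1.00 log2 higher in floxed lines to -0.49 and -0.12. The plot of mRNA levels by condition and all tests below use the TMM scale.

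**Figure D1:**
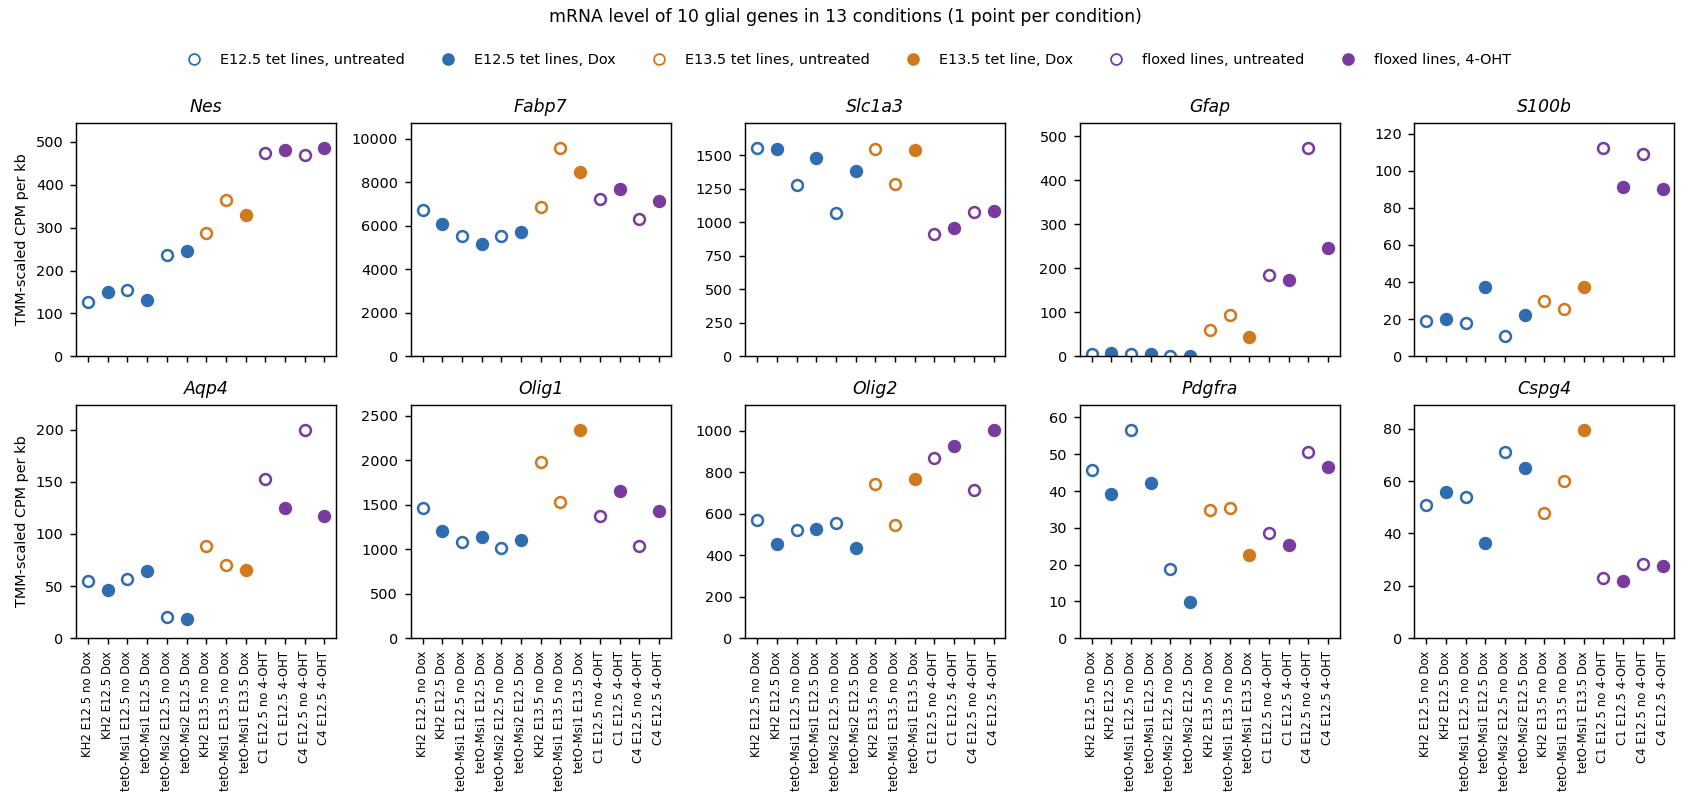
mRNA level (TMM-scaled CPM per kb of counted length, linear axis from 0) of each gene in 13 conditions, 1 point per condition; colours give the set of lines and stage, and filled points are treated cells. Gfap lies at 0 to 6.30 in E12.5 tet lines, 42.9 to 92.8 at E13.5 and 173 to 473 in floxed lines, whereas Slc1a3 is at 1068 to 1555, 1284 to 1548 and 913 to 1084.

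Glial gene levels differed between stages in untreated tet lines. KH2 and tetO-Msi1 cells from E13.5 were compared with those from E12.5 with the line as a block (edgeR's quasi-likelihood test, Benjamini-Hochberg adjusted over all genes tested). Here 5 of the 10 genes passed an adjusted p under 0.05, against 50.8% of all 11893 genes tested. Gfap rose by 3.75 log2 (SE 0.185, edgeR adjusted p = 1.58e-07), Nes by 1.19 (SE 0.103, edgeR adjusted p = 8.48e-06), Aqp4 by 0.48 (SE 0.131, edgeR adjusted p = 0.0117) and Olig1 by 0.45 (SE 0.101, edgeR adjusted p = 0.00414). Pdgfra fell by 0.56 log2 (SE 0.120, edgeR adjusted p = 0.00298), although its deposited RPKM was higher at E13.5 in both lines. Fabp7 (0.40, edgeR adjusted p = 0.0518), S100b (0.55, edgeR adjusted p = 0.0918) and Olig2 (0.20) did not pass, and Slc1a3 and Cspg4 differed by -0.02 and 0.02 log2. The share of members called was thus close to that of all genes. Other markers of these cell types, listed from textbook knowledge but with earlier results of these data known, were split as well. Of 8 other precursor genes 6 were higher and 1 was lower, among them Gpr17 (2.34 log2) and Nkx2-2 (1.42), and of 6 oligodendrocyte genes tested 4 were higher and 2 lower, led by the myelin gene Mag (5.51) and by Enpp6 (4.33). Of 12 other astrocyte genes 5 were higher and 4 lower, with Apoe at 2.33 log2 and Sparcl1 at -2.29. Radial glial genes other than the members were split, with 3 higher (Pdpn 0.95) and 4 lower (Hopx -1.96) of 11, as were glial regulators, with 2 higher (Zbtb20 1.68) and 3 lower (Stat3 -0.98) of 9. Of 7 neuronal genes tested 2 passed, Snap25 higher by 1.26 and Gap43 by 0.81 log2, against 50.8% of all genes. Flt1 (-2.01), the 1 endothelial gene tested, and Col1a1 (-1.38), 1 of 2 mural and fibroblast genes tested, were lower. In cell populations such as these, fewer cells of a type and less RNA per cell cannot be told apart, and the part of other cells in the stage difference was not tested. Stage, derivation and library set cannot be told apart here either.

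Glial gene levels also differed between floxed lines and tet lines of the same stage. Untreated C1 and C4 were set against untreated KH2, tetO-Msi1 and tetO-Msi2 at E12.5, which differ in alleles, time in culture (48 or 72 h) and library set together, so these cannot be told apart. Of the 10 genes 6 passed the test, against 66.3% of all 12211 genes tested, so the share of members called was not above that of all genes. All 3 astrocyte genes were higher in floxed lines. Gfap rose by 6.40 log2 (SE 0.845, edgeR adjusted p = 7.45e-04), a value that ranged from 5.59 without C4 to 6.95 without C1 and passed each time. Untreated tetO-Msi2 held 1 Gfap read, and without it the value was 5.86. S100b rose by 2.78 (SE 0.237, edgeR adjusted p = 1.28e-04) and Aqp4 by 1.99 (SE 0.400, edgeR adjusted p = 0.00458). Nes was higher by 1.44 (SE 0.249, edgeR adjusted p = 0.00242) and Olig2 by 0.52 (SE 0.110, edgeR adjusted p = 0.00565). Cspg4 fell by 1.19 log2 (SE 0.178, edgeR adjusted p = 0.00126). Slc1a3 was at -0.39 and did not pass (edgeR adjusted p = 0.0897), but passed without tetO-Msi2 (-0.52, edgeR adjusted p = 0.00984) and with DESeq2 (-0.40, adjusted p = 0.0448). Fabp7 (0.19), Olig1 (0.02) and Pdgfra (-0.04) did not pass, and Pdgfra had an SE of 0.458, with untreated tetO-Msi2 at 2.86 RPKM and tetO-Msi1 at 8.68 RPKM. Among oligodendrocyte lineage genes Olig2 was thus higher and Cspg4 lower, with Olig1 and Pdgfra not called.

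Other markers of the same lineages were split between the sets of lines too. Among 12 other astrocyte genes 5 were higher in floxed lines (Cd44 3.76 and Apoe 3.26 log2) and 2 lower. Of 11 other radial glial genes 6 were lower and 3 higher, led by the Notch target Hes5 (-4.90), while Hopx, an outer radial glia marker, was higher (2.32). Of the other precursor genes 3 were higher and 2 lower of 8 (Pcdh15 2.60, Sox8 -2.33), and of oligodendrocyte genes 3 were higher and 2 lower of 6 (Mag 4.77, Enpp6 3.55). Glial regulators were lower in 6 of 9 tested and higher in 1 (Zbtb20 -1.89, Lifr -1.79). Beside these, 4 of 8 neuronal genes were higher and 1 lower (Stmn2 2.90, Snap25 2.56), and Acta2 (3.94), Flt1 (2.63), Kdr (1.35) and Cd68 (1.42) were higher. The part of such cells in the member values was not tested. In floxed lines 7 of 10 neuronal genes were at 1 RPKM or more in every condition, as was 1 of 7 microglial, 1 of 6 endothelial and 1 of 7 mural and fibroblast genes. In E13.5 tet lines this held for 6 neuronal, 1 microglial, 0 endothelial and 1 mural and fibroblast genes. In E12.5 tet lines, whose RPKM rests on a smaller share of counted reads, it held for 3 neuronal genes and 0 of the other lists. In floxed lines Acta2 reached 127 RPKM, Flt1 6.31, Cd68 4.92 and Rgs5 1.14, and Cx3cr1 and C1qa were at 0.

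**Figure D2:**
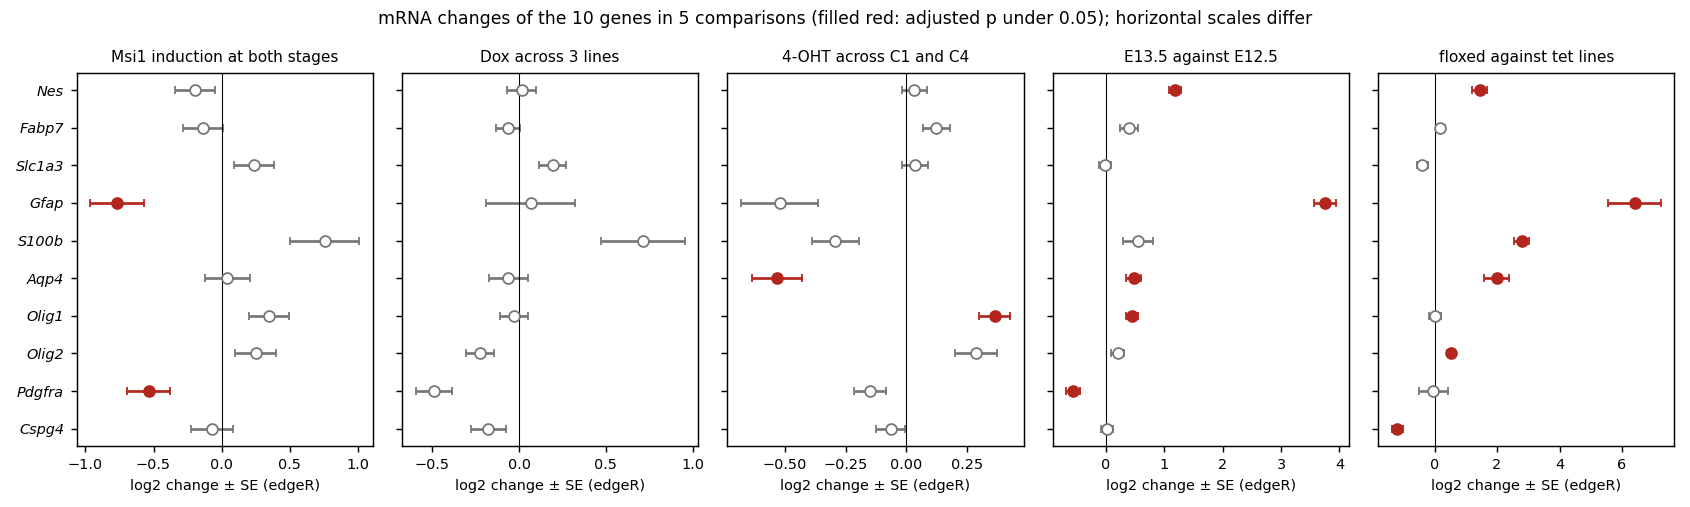
log2 change ± SE from edgeR of the 10 genes in 5 comparisons, with a horizontal scale for each panel and filled red points for an adjusted p under 0.05. Differences between stages and between sets of lines reach 3.75 and 6.40 for Gfap, while no change with Dox or 4-OHT is beyond 1 log2 unit.

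Induction of Msi1 was tested in the tetO-Msi1 line at E12.5 and E13.5 with stage as a block. Of the 10 genes 2 passed, Gfap and Pdgfra, both lower with Dox, against 3.6% of all 11938 genes tested. Gfap fell by 0.77 log2 (SE 0.198, edgeR adjusted p = 0.00675). This rested on E13.5, where Gfap went from 26.2 to 12.8 RPKM with Dox. At E12.5 it was at 0.825 and 0.875 RPKM from 100 and 41 reads, and the separate values were -1.12 at E13.5 and 0.10 at E12.5. With 1 residual degree of freedom, edgeR set infinite prior degrees of freedom here. Its SE and p-values thus use the spread pooled over genes, and do not measure the gap between the stages of Gfap. Pdgfra fell by 0.54 log2 (SE 0.157, edgeR adjusted p = 0.0247), from 8.68 to 6.52 RPKM at E12.5 and from 9.94 to 6.69 RPKM at E13.5, so both stages showed the direction. S100b was at 2.74 and 5.77 RPKM at E12.5 and at 6.98 and 11.1 RPKM at E13.5, a difference of 0.76 log2 that did not pass (SE 0.253, edgeR adjusted p = 0.0686). Olig1 (0.35), Olig2 (0.25) and Slc1a3 (0.24) had values above 0 without passing, and Nes (-0.20), Fabp7 (-0.14), Cspg4 (-0.07) and Aqp4 (0.04) were nearer to it. DESeq2 called neither Gfap (adjusted p = 0.50) nor Pdgfra (adjusted p = 0.16), and without the block of stage edgeR called no gene at all.

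Other genes of these lineages also passed with Msi1 induction, where 3.6% of all 11938 genes tested were called. Tnc, an extracellular matrix protein of radial glia, fell by 1.18 log2 and Hopx by 1.06, 2 of 11 radial glial genes tested, with none higher. Among 12 astrocyte genes Apoe was higher (0.83) and Sparcl1 lower (-0.56), and Lhfpl3 (-0.79), 1 of 8 precursor genes, and Ugt8a (-0.75), 1 of 6 oligodendrocyte genes, were lower. None of 9 glial regulators passed. In the neuronal list Snap25 (-1.49) and Gap43 (-0.79) were lower, 2 of 7 tested, and no microglial, endothelial or mural gene passed. The part of neuronal cells in the Gfap and Pdgfra values was not tested.

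Dox itself was given to all 3 E12.5 tet lines, 2 of which also induced a Msi transgene. With line as a block none of the 10 genes passed in edgeR, against 0.451% of 11969 genes, and DESeq2 called 1, Pdgfra (adjusted p = 0.0166). In edgeR 4 members and 1654 of all 11969 genes had an unadjusted p under 0.05. Pdgfra was lower with Dox in each line: 7.15 and 5.93 RPKM in KH2, 8.68 and 6.52 RPKM in tetO-Msi1, and 2.86 and 1.55 RPKM in tetO-Msi2, without and with Dox. Its fitted difference was -0.49 log2 (SE 0.106, edgeR adjusted p = 0.0619). Leaving out KH2 made it -0.64 (edgeR adjusted p = 0.00731) and leaving out tetO-Msi1 -0.54 (edgeR adjusted p = 9.35e-04), but leaving out tetO-Msi2 gave -0.32 (edgeR adjusted p = 0.374). S100b was at 2.98 and 3.02 RPKM in KH2 and at 1.64 and 3.46 RPKM in tetO-Msi2, without and with Dox, so it was higher in the Msi lines and level in KH2, from 29 to 87 reads a library. Its difference over 3 lines was 0.71 log2 (SE 0.241, edgeR adjusted p = 0.209) and 1.06 without KH2 (edgeR adjusted p = 0.0343), and was 0.51 without tetO-Msi1 and 0.58 without tetO-Msi2, neither of which passed. Slc1a3 was higher with Dox in tetO-Msi1 (196 and 228 RPKM) and tetO-Msi2 (163 and 215 RPKM) and not in KH2 (243 and 235 RPKM). It was at 0.29 log2 without KH2 (edgeR adjusted p = 0.0419) and 0.19 over the 3 lines. Olig2 passed only when tetO-Msi1 was left out (-0.35, edgeR adjusted p = 0.0480). Among the context lists only Tnc (-0.56) and Apoe (0.67) passed.

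The difference between the Msi lines and KH2 was then tested directly, as the Dox effect in tetO-Msi1 and tetO-Msi2 less that in KH2. Again none of the 10 genes passed in edgeR, against 0.167% of all genes. At an unadjusted p under 0.05 were 6 members and 1024 of all 11969 genes. S100b differed by 1.00 log2 (SE 0.461, edgeR adjusted p = 0.544), Pdgfra by -0.40 (SE 0.174, edgeR adjusted p = 0.493), Cspg4 by -0.47 (SE 0.151, edgeR adjusted p = 0.259) and Olig1 by 0.39 (SE 0.129, edgeR adjusted p = 0.271). Nes (-0.32) and Slc1a3 (0.31) completed the 6. Tnc (-0.68) and Apoe (0.80) passed among the other listed genes. A Dox effect that differs between Msi lines and the control was therefore not shown for any member, at 1 residual degree of freedom.

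Single pairs of libraries showed how far each gene moved in each line. With 0.5 added to each RPKM, only Gfap in E13.5 tetO-Msi1 cells was past 2-fold, at -1.01 log2. S100b was at 0.95 in E12.5 tetO-Msi1 and 0.89 in tetO-Msi2 on that scale, and at 1.07 and 1.08 on the plain ratio of RPKM, which the values below use and on which Gfap was at -1.04. Of all genes, 0.0984% passed 2-fold in KH2, 0.354% in tetO-Msi1 at E12.5, 0.916% in tetO-Msi1 at E13.5, 0.387% in tetO-Msi2, 0.11% in C1 and 1.14% in C4. Pdgfra had values below 0 in all 6 pairs, from -0.05 in C4 to -0.88 in tetO-Msi2. Olig1 and Olig2 had opposite directions in different pairs. Olig1 was lower with Dox in KH2 (229 and 183 RPKM) and higher in E13.5 tetO-Msi1 (433 and 697 RPKM). Olig2 was lower in KH2 (89.3 and 68.9 RPKM) and tetO-Msi2 (84.6 and 67.5 RPKM) and higher in E13.5 tetO-Msi1 (155 and 228 RPKM). Cspg4 was lower in tetO-Msi1 at E12.5 (8.26 and 5.62 RPKM) and higher there at E13.5 (16.9 and 23.7 RPKM). Nes and Fabp7 stayed within 0.25 log2 in every pair.

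**Figure D3:**
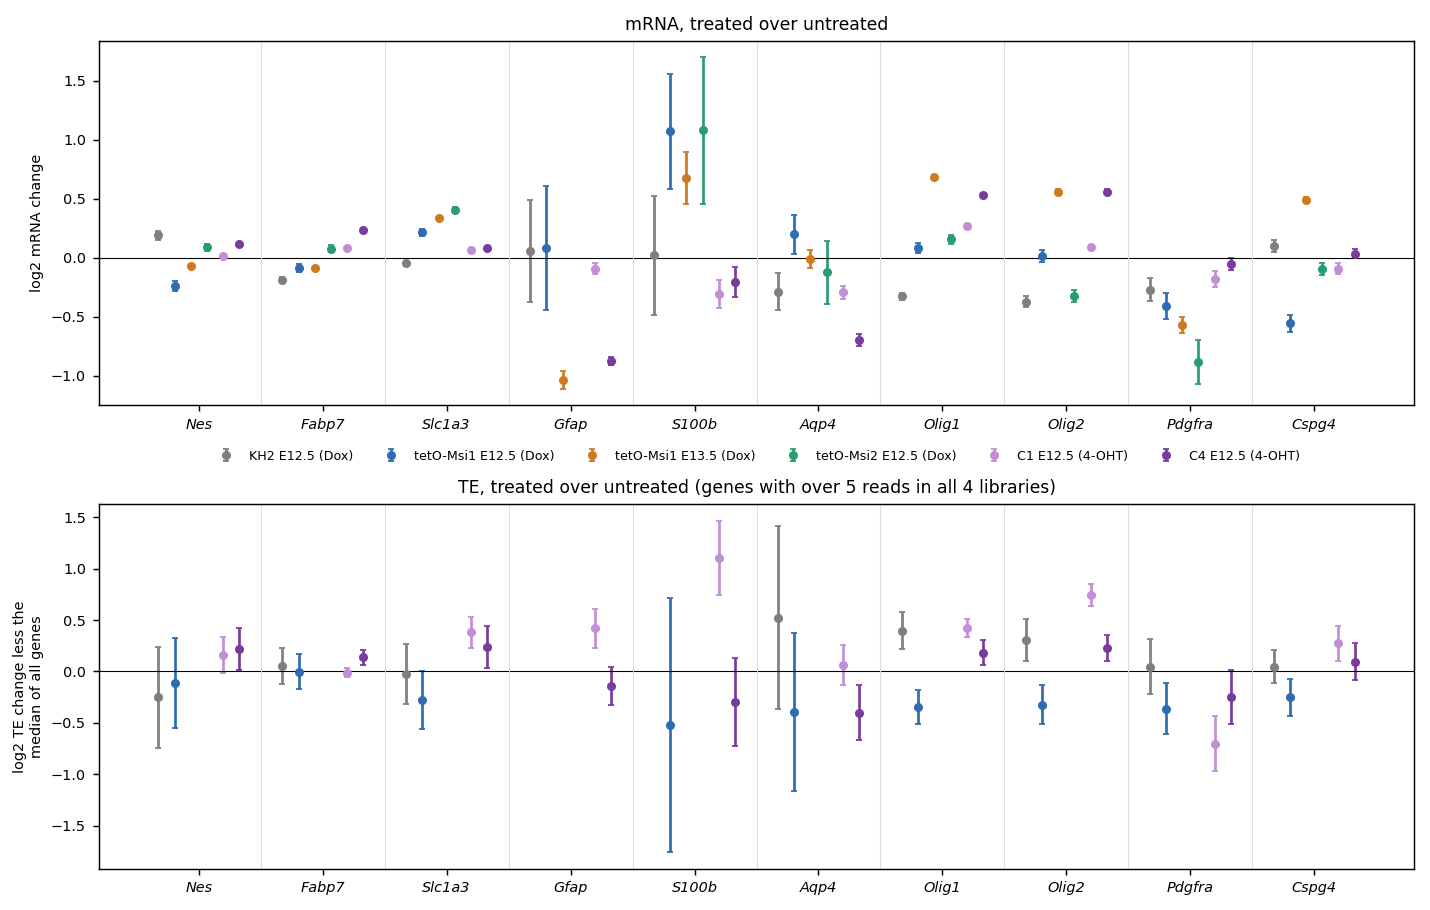
Top, log2 change in mRNA (RPKM, treated over untreated) of each gene in 6 pairs of libraries; bottom, log2 change in translation efficiency less the median of all genes of the pair, in 4 pairs. Bars are 95% counting intervals; Gfap in tetO-Msi2 (1 and 0 reads) and pairs with 5 footprints or fewer are not drawn. Olig1, Olig2 and Cspg4 lie on both sides of 0, and Gfap at -1.04 is the lowest mRNA point.

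4-OHT was tested over C1 and C4 with line as a block, an average over a line that lacks CreER and one that carries it. Of the 10 genes 2 passed, against 5.5% of all 11626 genes tested. Aqp4 went from 50.1 to 40.8 RPKM in C1 and from 63.9 to 39.4 RPKM in C4, and fell by 0.53 log2 (SE 0.103, edgeR adjusted p = 0.0231). Olig1 went from 452 to 543 RPKM in C1 and from 331 to 479 RPKM in C4, and rose by 0.36 log2 (SE 0.063, edgeR adjusted p = 0.0157). Both genes moved the same way in C1, which cannot delete Msi1 or Msi2, with -0.29 for Aqp4 and 0.27 for Olig1 against -0.77 and 0.46 in C4. Gfap was at 60.3 and 56.6 RPKM in C1 and at 151 and 82.6 RPKM in C4, a difference of -0.09 in C1 and -0.95 in C4. Over both lines Gfap was at -0.52 log2 and did not pass (SE 0.159, edgeR adjusted p = 0.106). Olig2 (0.29, edgeR adjusted p = 0.104) and S100b (-0.29, edgeR adjusted p = 0.138) did not pass either. Nes, Slc1a3, Cspg4, Fabp7 and Pdgfra were within 0.15 log2 of 0. Whether C4 responded differently from C1 was not tested, since 4 libraries leave no residual spread for that term. Without the block of line no gene passed in edgeR.

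Astrocyte genes other than the members also moved with 4-OHT. Apoe (-0.92) and Ndrg2 (-0.57) led 5 of 12 that fell, and none rose. Of 11 other radial glial genes 3 rose and none fell, with Ptprz1 at 0.26 and Tnc at 0.25 log2. Mag (0.99) was the only 1 of 6 oligodendrocyte genes to rise, none of 8 precursor genes and none of 8 neuronal genes passed, and Il6st (-0.30) fell among glial regulators. Acta2 fell by 1.04 log2 in the same comparison, 1 of 4 mural and fibroblast genes tested, and its part in the Aqp4 and Olig1 values was not tested.

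Translation efficiency (TE) was the footprint RPKM of a gene over its mRNA RPKM. In Nes, Fabp7, Slc1a3 and Aqp4 RNA-Seq and Ribo-Seq were counted over different sets of exons, so their TE cannot be compared with other genes. Comparing it between conditions assumes the same exon use in each, which was not checked. For the other 6 the counted lengths matched after 40 nt were taken off each exon. No member passed the test of TE in edgeR with either drug. With Dox in KH2 and tetO-Msi1, 8 genes could be tested, of which none passed and none had an unadjusted p under 0.05. Of all 6442 genes, 0.0155% were called and 227 had an unadjusted p under 0.05. Gfap (1 to 4 footprints) and S100b (4 to 20) were not tested. With 4-OHT in C1 and C4 none of the 10 passed, 4 had an unadjusted p under 0.05, and 0% of 8255 genes were called (742 at an unadjusted p under 0.05, and 2 with DESeq2). Those 4 were Olig2 (0.49, SE 0.161, edgeR adjusted p = 0.545), Slc1a3 (0.32), Olig1 (0.30) and Pdgfra (-0.48, SE 0.192, edgeR adjusted p = 0.551).

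Single pairs were also held to the study's own limits: TE had to move by 3-fold or more while mRNA moved by less than 1.5-fold, with over 5 reads in each of the 4 libraries. These limits were met by 1.1% of genes in KH2, 1.29% in tetO-Msi1, 38.5% in C1 and 2.6% in C4. Counted footprints made up 28.5% of the reads behind RPKM in untreated C1 and 11.2% with 4-OHT. The shares were 7.53% and 7.46% in C4, 32.1% and 12.3% in KH2, and 10.8% and 7.85% in tetO-Msi1, without and with drug. The share of untreated KH2 includes Hes7, which held 66.7% of the counts of that library. The median TE change of all genes was 0.145 log2 in KH2, 0.05 in tetO-Msi1, -1.46 in C1 and -0.23 in C4. The part of these shares in the TE changes was not tested. Pdgfra in C1 was the only member to meet the study's limits. Its footprints went from 797 to 144 and its TE from 1.16 to 0.261, a log2 change of -2.16 (95% counting interval -2.42 to -1.89). The median gene of that pair was at -1.46, and relative to it Pdgfra was at -0.70. In C4, where CreER was present, Pdgfra was at -0.25 relative to the median, from 313 and 196 footprints. Olig2 went the other way in C1, 0.74 above the median (1994 and 1177 footprints), and S100b was 1.11 above it (190 and 110 footprints). Relative to the pair's median, Olig1 and Olig2 were at 0.40 and 0.31 in KH2 and at -0.34 and -0.33 in tetO-Msi1.

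TE ranks of most members differed between the sets of lines. Among the 6181 genes with more than 5 reads in every library of both assays, 8 members could be ranked in each condition. For Nes, Fabp7, Slc1a3 and Aqp4, whose counted exons differ, the height of the percentile cannot be read. Its shift between conditions can be read only if exon use is the same in each, which was not checked. Whether exon sets matched in the other genes ranked was not checked. In 7 of the 8 members the 4 floxed conditions did not overlap the 4 tet conditions, against 28.9% of all 6181 genes. These are 2 lines against 2 lines, and line set, culture time and library set cannot be told apart. Fabp7 moved most. It lay at percentiles 23.2 to 31.2 of TE in tet lines and 82.0 to 89.2 in floxed lines. Its TE itself was 0.183 and 0.225 in untreated KH2 and tetO-Msi1 and 1.20 and 0.240 in untreated C1 and C4, where the median gene was at 0.269, 0.293, 0.572 and 0.151. Aqp4 (57.3 to 83.1, then 89.4 to 93.6) and Slc1a3 (26.2 to 37.1, then 40.3 to 63.6) were also higher in floxed lines. Olig2 was lower there (78.1 to 87.8, then 17.5 to 65.8), as were Nes (45.0 to 60.5, then 13.3 to 38.4), Pdgfra (95.3 to 96.8, then 65.4 to 88.4) and Cspg4 (95.3 to 96.6, then 77.8 to 92.0). Only Olig1 overlapped, at 40.9 to 76.8 and 25.8 to 65.2. Thus Olig2 mRNA was higher and its TE rank lower in floxed lines, and for Aqp4 both were higher. In the untreated KH2 library, with 66.7% of its counts on Hes7, Olig1 lay at percentile 39.6 when all genes of each library were ranked, against 59.2 to 74.8 in the other 3 tet conditions. Aqp4 was at 57.1 there and 80.0 with Dox in KH2, Nes at 57.8 and 43.8, and Fabp7 at 22.9 and 24.8. Single genes also held larger shares of the counts in the other tet libraries than in floxed ones. The part of that library, and of these shares, in the ranks was not tested.

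**Figure D4:**
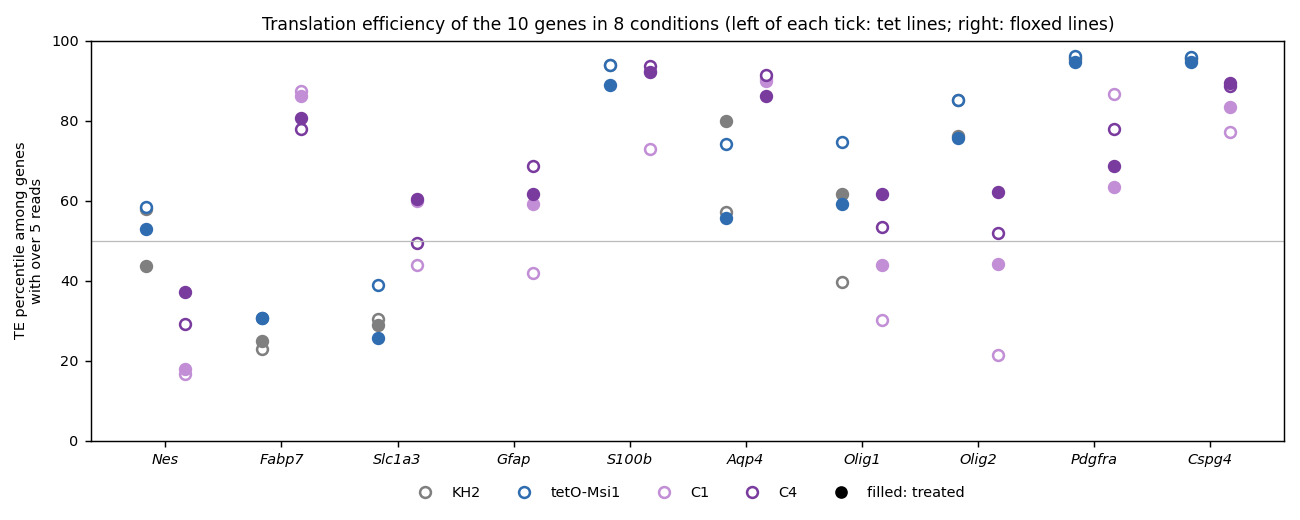
Percentile of TE among all genes with over 5 reads in both assays of a condition (0 to 100), for each gene in 4 tet-line conditions (left of the tick) and 4 floxed-line conditions (right); filled points are treated cells, and points with 5 reads or fewer are left out. Pdgfra and Cspg4 sit above percentile 94 in every tet-line condition, and Fabp7 is at 22.9 to 30.8 on the left and 77.9 to 87.4 on the right. For Nes, Fabp7, Slc1a3 and Aqp4 at most shifts between conditions can be read, as their counted exons differ between assays. Such shifts assume the same exon use in each condition.

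Between genes, TE can be compared for the 6 with matching exons. S100b (median percentile 92.3), Cspg4 (92.0) and Pdgfra (90.7) had the highest TE rank, followed by Olig2 (68.9), Gfap (60.5, floxed lines only) and Olig1 (56.3). These medians pool sets of lines that differ: Olig2 was at 75.6 to 85.2 in tet lines and 21.3 to 62.2 in floxed lines, and Pdgfra at 94.6 to 96.2 and 63.5 to 86.8. The S100b values rest on 9 to 190 footprints. Its neighbours in this order, Cspg4 and Pdgfra, overlapped each other in range (77.2 to 95.9 and 63.5 to 96.2).

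For each member the genes with the most similar mRNA pattern were named by Pearson's r of log2(RPKM + 0.5) over the 13 conditions, among 10848 genes. On RPKM these correlations share the gap in counted reads, so r is also given on the TMM scale. Gfap was closest to Slc1a1 (0.994 on RPKM, 0.986 on TMM) and Tmeff2 (0.993 and 0.970). Olig2 was closest to Slc35a4 (0.995 and 0.972) and Fam108c (0.993 and 0.957), and Olig1 to Metrn (0.990 and 0.934) and Zfp668 (0.988 and 0.843). Fabp7 was closest to Dnmt1 (0.994 and 0.893) and Rad50 (0.992 and 0.932), Slc1a3 to Mtch1 (0.986 and 0.873) and Pigq (0.979 and 0.850), and Cspg4 to Stxbp5 (0.967 and 0.907) and Stat2 (0.958 and 0.966). Pdgfra had the loosest match, with 3110035E14Rik (0.929 and 0.771) and Padi2 (0.928 and 0.877). The scale mattered for the rest: Aqp4 with Ppt1 went from 0.994 to 0.550 and with Lgals8 from 0.989 to 0.190, Nes with Rev1 from 0.995 to 0.779 and with Tdrkh from 0.993 to 0.538. S100b with Endod1 was at 0.995 and 0.978. Within the members Gfap and Aqp4 had the highest r on RPKM (0.973, and 0.955 on TMM). Next on RPKM were Fabp7 with Olig1 (0.954 and 0.746) and Nes with Olig2 (0.9396 and 0.767), and S100b was at 0.938 and 0.842 with Gfap and at 0.935 and 0.864 with Aqp4. These 13 points come from 5 lines and fall into the sets of lines described above.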

How the data were processed

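RNA-Seq and Ribo-Seq libraries of mouse NSC lines were deposited as counts and RPKM per gene over coding exons. Per the labels, the authors grew cells for 48 or 72 h, and the submitters' processing notes name Bowtie, TopHat and mm9, with versions not given in the sources used here. The authors made the deposited RPKM with a denominator of more reads than the counts sum to. Counts were tested with edgeR 4.0.16 (R 4.3.3, TMM, CPM of at least 1 in 2 libraries, quasi-likelihood, adjusted p under 0.05), and DESeq2 1.42.0 was an alternative. TE used an interaction term over both assays. Counts of genes past 2-fold in single pairs used log2(RPKM + 0.5), which understates changes of low genes, and the pair values of members are ratios of RPKM with nothing added. Counting intervals (95%) and floors (3 counts) cover counting error only. On simulated counts with 200 genes changed 4-fold, 200 of 200 were recovered for Msi1 induction (14 false calls), Dox (12), 4-OHT (7) and stage (6), 199 for floxed against tet lines (10), 193 for the Dox interaction (12), and 194 for TE with Dox (10) and with 4-OHT (4). The simulation used 1 dispersion for all genes, no line, stage or assay effects, and changed no gene of low count. It therefore does not show how the tests treat smaller changes or genes that differ in spread. Technical replicates of untreated E13.5 tetO-Msi1 differed by a chi-square per degree of freedom of 1.67 over 13207 genes, against 10.9 over 13012 genes for untreated E12.5 KH2 and tetO-Msi1. Nothing in the labels says that libraries came from separate cultures. All members were named in every comparison, with up to 2 genes per context list, by size of change among those past the threshold, and the 2 closest patterns per member, of which 1 for S100b is not reported here. The Dox interaction and the values of each line alone for 4-OHT and stage were added after seeing the data. Members and lists were chosen with earlier results of these data known. Of the listed genes, Pax6, Slc1a2, Mbp, Myrf, Nfia, Nfib, Id1, Map2, Neurod1 and Ptprc were not analysed here. Sequences are from the NCBIM37 genome and its annotation, and Aqp4 sequence is not shown.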

Additional observations from a re-analysis of the deposited data

Results flagged for a closer look

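Opposite directions under the same drug, past 1.25-fold each way with counting intervals clear of 0, were seen for 3 members, all of the oligodendrocyte lineage. Olig1 mRNA changed with Dox by 0.69 log2 in E13.5 tetO-Msi1 cells and by -0.33 in E12.5 KH2 cells. Olig2 mRNA was at 0.56 in E13.5 tetO-Msi1 cells, and at -0.37 in KH2 and -0.33 in tetO-Msi2 cells at E12.5. Cspg4 mRNA was at 0.49 in tetO-Msi1 at E13.5 and at -0.56 in the same line at E12.5. Each value is 1 library against 1 library, and these differences, which cross stages, were not tested. Olig1 TE less the pair's median was at 0.40 in KH2 and at -0.34 in tetO-Msi1, from 394 to 1535 footprints a library, and this difference was not tested.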

How the results depend on the processing

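Counts of members called or past a limit were within 1.5 times in 63 alternatives and moved in 17. For Msi1 induction the 2 calls became 0 with DESeq2 and 0 without the block of stage. For Dox the count of 0 became 2 without a filter on low counts and 1 with DESeq2, and ranged from 0 to 3 when 1 line was left out (3 without KH2, 2 without tetO-Msi1). For 4-OHT the 2 calls became 4 without the filter (Gfap and Olig2 added) and 0 without the block of line. For single pairs, a pseudocount of 0.1 gave 1 member past 2-fold in E12.5 tetO-Msi1 and 1 in tetO-Msi2, a pseudocount of 2 gave 0 in E13.5 tetO-Msi1, and a 1.5-fold limit gave 1, 3, 2 and 2 in tetO-Msi1 at E12.5, tetO-Msi1 at E13.5, tetO-Msi2 and C4. The TE limits in C1 were met by 0 members after centring on the pair's median and by 8 with a 2-fold limit.

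Values that reversed were Gfap with Msi1 induction at 1 stage alone (-1.12 at E13.5 and 0.0973 at E12.5) and Cspg4 with Msi1 induction without the block (0.0205). With 1 line left out of Dox, Nes ranged from -0.0938 to 0.142, Aqp4 from -0.208 to 0.0436, Olig1 from -0.102 to 0.10 and Cspg4 from -0.339 to 0.00416. With 1 line left out of floxed against tet lines, Olig1 ranged from -0.175 (without C1) to 0.232 and Pdgfra from -0.486 to 0.342 (without C1). Slc1a3 reversed between stages without the filter (0.0067), and Olig2 TE with Dox under DESeq2 size factors (0.0056) and DESeq2 (0.0063). Of these only Gfap was called. The levels of Slc1a3 and Pdgfra in floxed over tet lines became -0.49 and -0.12 on the TMM scale. The causes were not tested. The calls for stage and for floxed against tet lines of Nes, Gfap, Aqp4 and, in their one comparison, S100b, Olig2, Cspg4 and Pdgfra passed in every alternative with a test, and the Olig1 stage call in 5 of 6.

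Over all genes, Msi1 induction gave 430 calls and 104 with DESeq2; Dox gave 54, 437 without the filter and 24 to 519 with 1 line left out; 4-OHT gave 639 and 1254 without the filter. Without the block all 3 gave 0. TE with Dox gave 1 call and 0 with more than 20 reads, and TE with 4-OHT 0 and 2 with DESeq2. Genes past 2-fold in a pair numbered 10 to 124, 5 to 47 with a pseudocount of 2, 22 to 197 with one of 0.1 and 96 to 880 at 1.5-fold, and without a filter on RPKM 18 in place of 10 in KH2 and 58 in place of 36 in E12.5 tetO-Msi1. Genes past the TE limits numbered 77, 88, 3537 and 206 in KH2, tetO-Msi1, C1 and C4, and 498, 438, 7399 and 919 at 2-fold. With more than 20 reads they numbered 13, 10 and 16 in KH2, tetO-Msi1 and C4, and after centring 212 in C1.

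With 1 library per condition, 1 to 3 residual degrees of freedom and 29 to 87 S100b reads in E12.5 tet libraries, small changes of low members could not be resolved. The line left out leaves no residual spread for 4-OHT and stage, where each line alone is a value with no test.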
